A study of Mus musculus with 18 samples.

Results

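The 49 genes examined here are the parts list of Wnt signaling at the cell surface and its feedback targets, in 9 mouse embryos at E11.5. They were 18 Wnt ligands, 12 receptors (10 Frizzled receptors and the co-receptors Lrp5 and Lrp6), 9 secreted antagonists, 5 genes of the R-spondin branch (4 R-spondins and their receptor Lgr5), the release factor Wls and 4 feedback targets. Members were chosen by gene symbol and role, a rule that uses no measured value, with earlier results of these data known. All 49 were among the 34245 genes of the deposited table and all 49 passed the filter on low values, which left 19398 genes.

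Wnt proteins are lipid-modified signals that Wls carries to the cell surface, where they bind Frizzled receptors, with Lrp5 or Lrp6 as partner in the canonical branch. That branch stabilizes β-catenin, which acts with Lef1 and Tcf7 on DNA and switches on feedback genes such as Axin2 and Nkd1. Secreted antagonists bind either the Wnts or the co-receptors, whereas R-spondins act through Lgr receptors to keep Frizzled receptors on the surface. In the embryo the pathway is used in limb and tail outgrowth, brain regions, kidney, skin and cartilage.

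Total RNA was sequenced from 3 embryos each of Dnmt3b+/+, embryos labelled Dnmt3b-/- (a conventional null allele in every cell, called labelled null embryos below) and Dnmt3bCI/CI (a knock-in allele made to be catalytically inactive, for which the study does not exclude residual activity), 1 library per independent embryo. All 3 groups were of the FVB strain, came from matings of Dnmt3b+/- and Dnmt3b+/CI mice and were labelled as whole embryos. The litter and mating of each embryo are not given in the sources used here. Differences between litters or lines therefore cannot be told apart from those of genotype. Dnmt3b is an enzyme that methylates DNA, and the comparisons ask which expression changes follow from losing the protein and which from losing its catalytic activity. Values are FPKM, read counts scaled to gene length and library size, so that levels can be compared between genes as well as between embryos. Fold changes are log2 differences of FPKM + 0.1 with their standard error (SE), from limma over all 19398 genes, and a gene was called higher or lower at a Benjamini-Hochberg adjusted p under 0.05. With 3 embryos against 3, an exact two-sided permutation test cannot give a p below 0.1, so single genes rest on the limma model.

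From 38451729 to 49808777 reads per library stood behind the values, as worked back from their spacing. Dnmt3b itself had 2.45, 3.12 and 3.33 FPKM in the labelled null embryos, 2.25, 1.62 and 2.04 FPKM in Dnmt3b+/+ and 2.06, 1.98 and 2.32 FPKM in Dnmt3bCI/CI embryos, and was called higher under the null label relative to Dnmt3b+/+ (log2 fold change 0.57, adjusted p = 0.0248) and to Dnmt3bCI/CI (0.46, adjusted p = 0.0488). Gene-wide values do not resolve a deletion within the gene, so the group is named by its label. The study genotyped its embryos from yolk sac DNA, and also examined Dnmt3b protein and DNA methylation in embryos of this genotype, which are not used here. Several libraries labelled whole embryo had little or nothing of the markers of an organ or region. The summed level of 5 heart genes was 4.11, 79.6 and 19.4 FPKM in Dnmt3b+/+ embryos 1 to 3, 14.7, 78.4 and 48.1 FPKM in the labelled null embryos and 60.8, 72.2 and 6.69 FPKM in Dnmt3bCI/CI. The atrial gene Nppa was down to 0.104 FPKM in Dnmt3b+/+ embryo 1 and 0.21 FPKM in Dnmt3bCI/CI embryo 3. Liver genes other than Ttr (Afp, Alb, Apoa1 and Apoa2) summed to 0.367 FPKM in Dnmt3b+/+ embryo 2 and to between 47.7 and 236 FPKM in the other 8. Forebrain genes (5: Emx1, Tbr1, Six3, Lhx2 and Nkx2-1) summed to 3.58 FPKM and the lens gene Cryaa to 0.0175 FPKM in Dnmt3bCI/CI embryo 2, against at least 14.4 and 3.09 FPKM in the others. The forebrain, lens and liver lists were chosen after the data were seen. Calls below were therefore also made without the 2 embryos lowest in heart markers and without all 4 of these embryos.

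**Figure D1:**
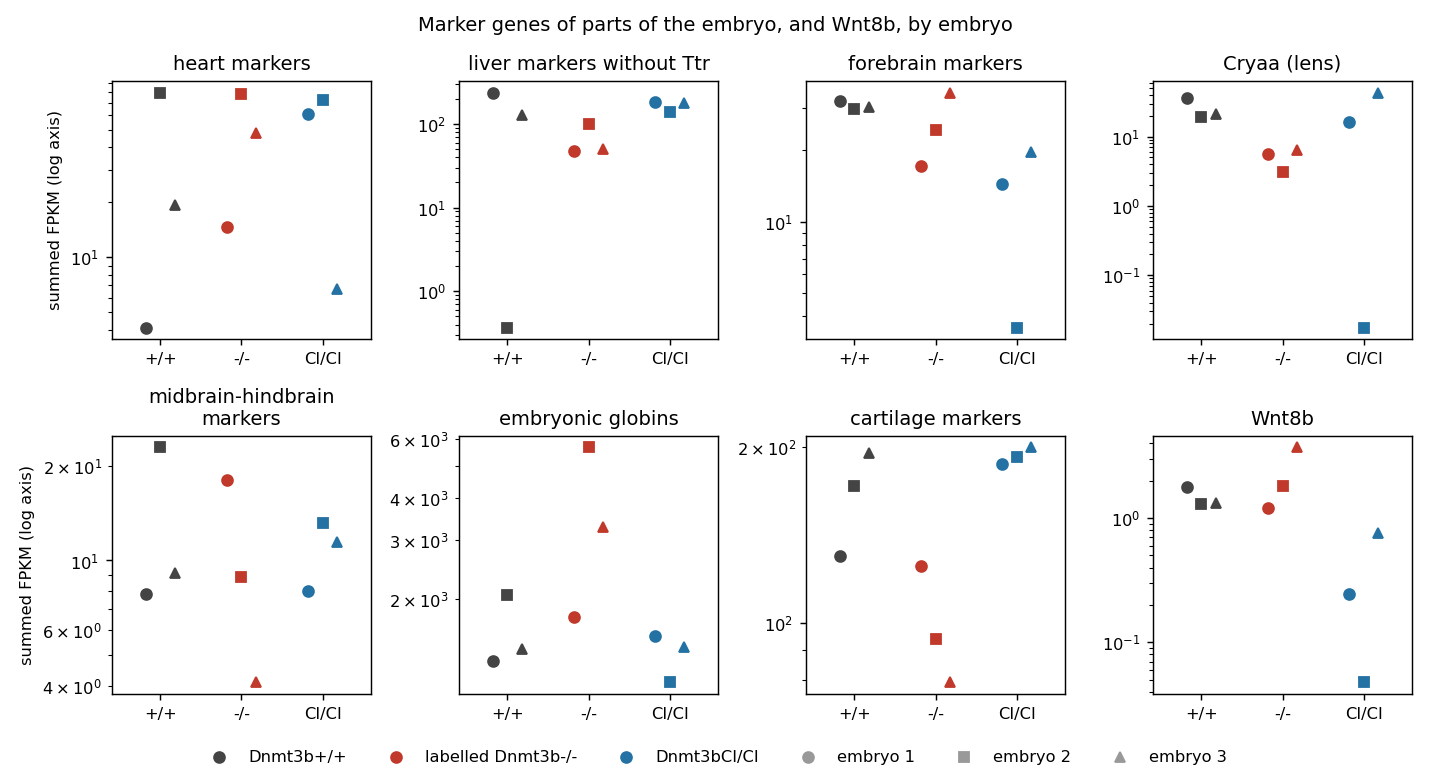
Summed FPKM (log axis) of marker genes for parts of the embryo, and the level of Wnt8b, in each of the 9 embryos by genotype; each point is 1 embryo and its shape gives the embryo number. Dnmt3b+/+ embryo 2 had 0.367 FPKM of liver markers, and Dnmt3bCI/CI embryo 2 was lowest for forebrain markers (3.58 FPKM), Cryaa (0.0175 FPKM) and Wnt8b (0.0479 FPKM).

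Levels of the members spanned from 63.4 FPKM for the antagonist Sfrp2 in a Dnmt3b+/+ embryo to 0.0479 FPKM for Wnt8b in a Dnmt3bCI/CI embryo. By mean level over the 9 embryos, the highest ligand was Wnt5a, the highest receptor Fzd2, the highest antagonist Sfrp2, the highest R-spondin Rspo1 and the highest feedback target Nkd1. No ligand exceeded 11.8 FPKM in any embryo, whereas Fzd2 was between 36 and 41.3 FPKM in all 9. Ligands and receptors overlapped in level, with means of 1.11 FPKM for Fzd5 and 2.08 FPKM for Fzd6 beside 9.1 FPKM for Wnt5a. Reads worked back from the values came out whole, within 0.05 of a read, for 43 of the 49 members. Wnt8b was among the 6 for which they did not, so its numbers are approximate. The smallest were about 7 reads for Wnt8b in Dnmt3bCI/CI embryo 2 and 9 reads for Sfrp4 in labelled null embryo 3. Folds of these genes are thus imprecise, also since the 0.1 FPKM added to each value shrinks the changes of low genes.

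**Figure D2:**
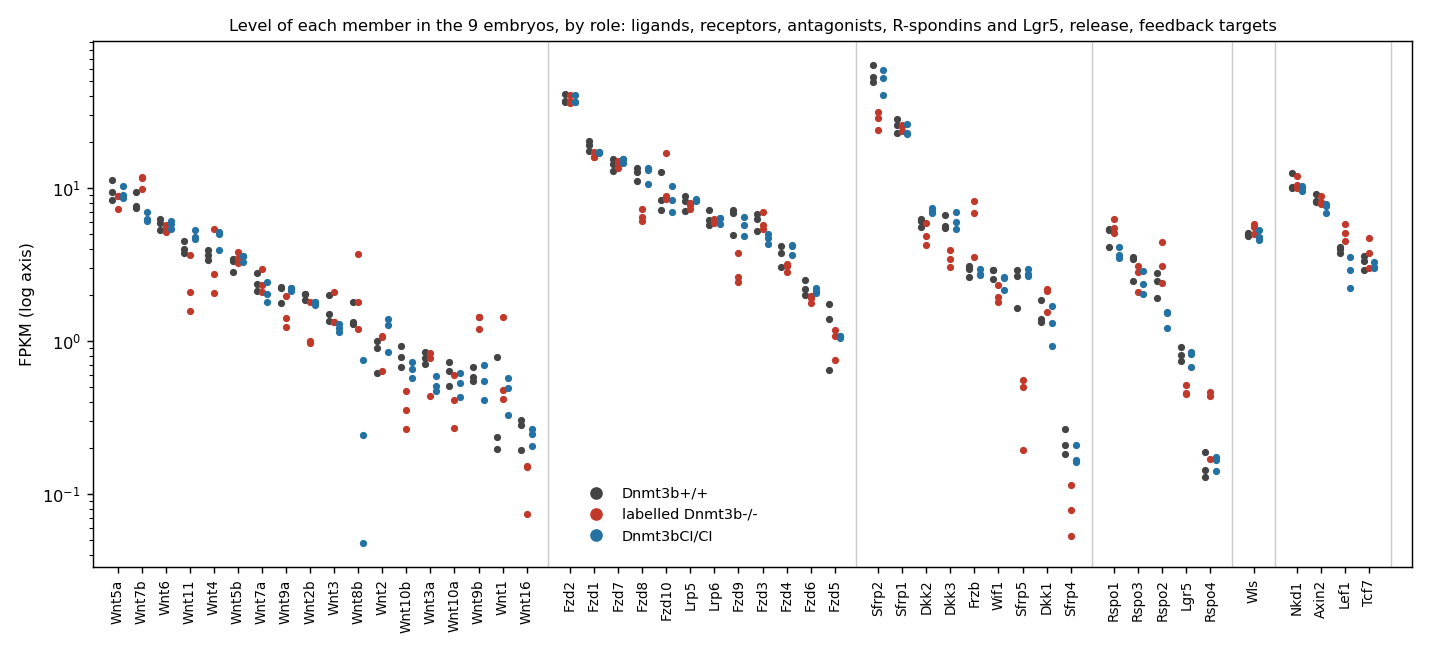
FPKM (log axis) of each of the 49 members in the 9 embryos, 1 point per embryo, ordered within each role by the mean in Dnmt3b+/+ embryos. Fzd2 and Sfrp2 lead their roles, and the 3 embryos labelled Dnmt3b-/- sit apart from the others for Sfrp2, Sfrp5, Fzd8 and Wnt9b.

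Relative to Dnmt3b+/+, 3 members were higher and 13 lower in the labelled null embryos. Over all genes tested, 9.41% were higher and 16.4% lower. With quantile normalization in place of the deposited scaling, the split was 4 higher and 9 lower among the members and 2236 higher and 2044 lower among all genes, in place of 1826 and 3175. At 2-fold or more, 1 member was higher (Wnt9b) and 2 were lower (Sfrp5 and Fzd9), against 1.07% and 3.38% of all genes. The median log2 fold change of the members, -0.07, was that of all genes tested, also -0.07, and 17 of 49 were positive. By role, 2 of 18 ligands were higher and 4 lower, 3 of 12 receptors were lower, 1 of 9 antagonists was higher and 5 lower, and Lgr5 was lower among the 5 genes of the R-spondin branch. Wls and the 4 feedback targets were not called. Relative to the same Dnmt3b+/+ embryos, which this comparison shares, 0 members were called in Dnmt3bCI/CI by limma, 8 had an unadjusted p under 0.05, and 0.129% of all genes were higher and 0.0155% lower. Their median log2 difference was -0.09, against 0.02 for all genes.

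The labelled null embryos were also set against Dnmt3bCI/CI. In it 7 members were higher and 13 lower, beside 9.7% and 18.2% of all genes. Quantile normalization turned this split to 10 higher and 7 lower among the members and 2840 higher and 2281 lower among all genes, in place of 1882 and 3525, and moved the median log2 fold change of all genes from -0.08 to 0.03; the members' median under the deposited scaling was -0.06. At 2-fold or more, Wnt8b, Wnt9b, Frzb and Rspo2 were higher and Sfrp5 and Wnt11 lower, beside 1.1% and 4.32% of all genes. These are bulk samples labelled as whole embryos, in which fewer cells of a type, missing tissue and less RNA per cell cannot be told apart.

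**Figure D3:**
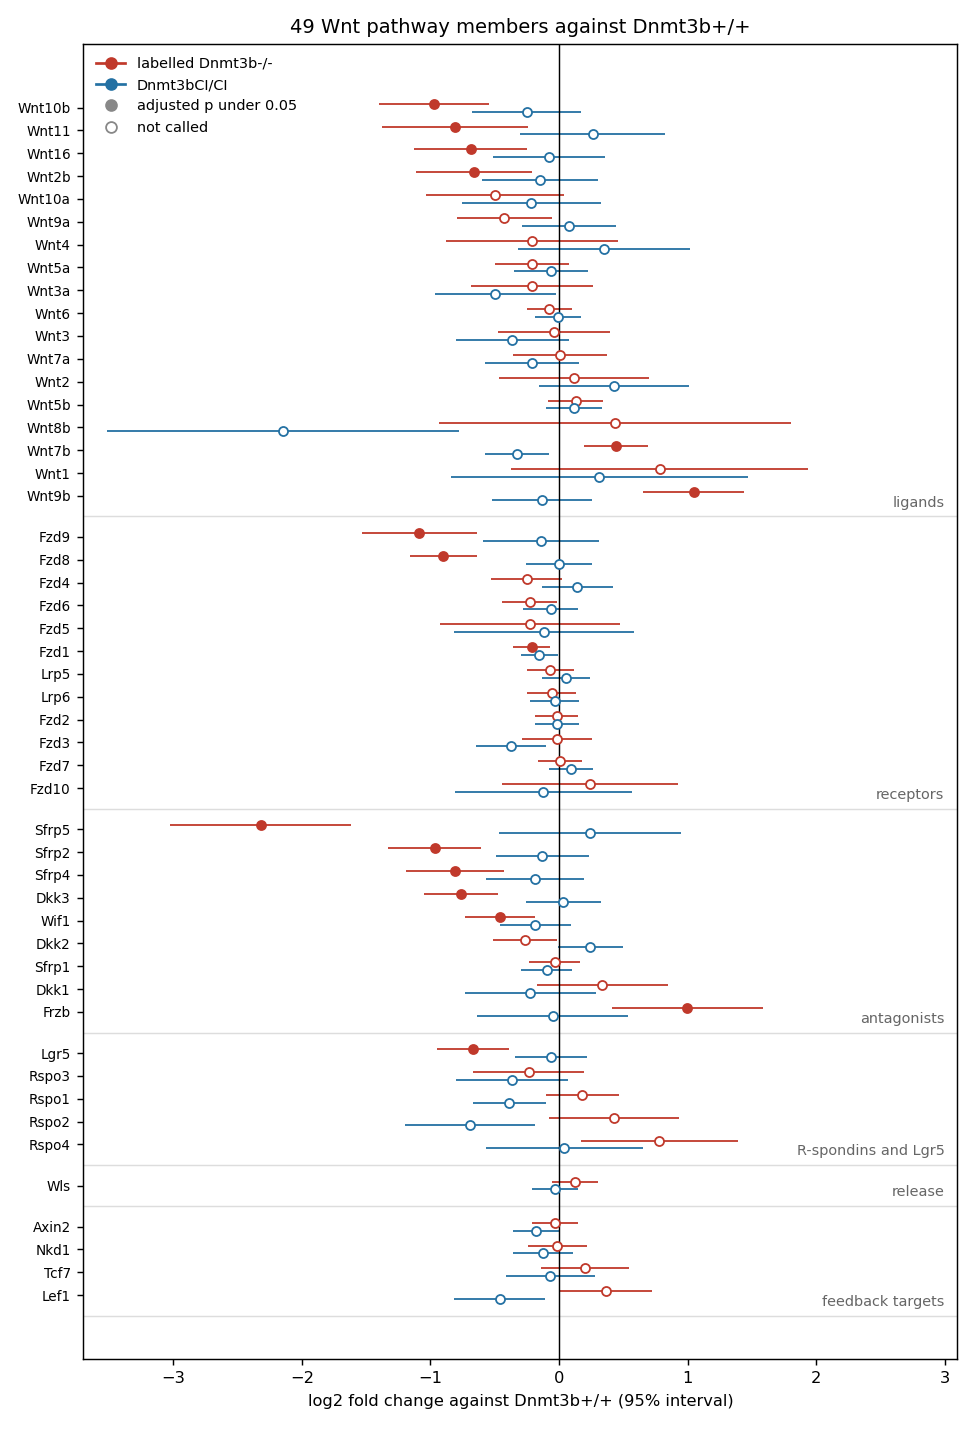
Log2 fold change with its 95% interval for each member, grouped by role, in the labelled null embryos (red) and Dnmt3bCI/CI (blue) against Dnmt3b+/+; filled points have an adjusted p under 0.05. Sfrp5 lies farthest to the left for the labelled null embryos (-2.32), Wnt8b has the widest intervals, and no blue point is filled.

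Among the ligands, Wnt9b, which the nephric duct sends to start nephron formation, was higher in all 3 embryos labelled Dnmt3b-/-. It had 1.44, 1.19 and 1.44 FPKM there, 0.679, 0.551 and 0.581 FPKM in Dnmt3b+/+ and 0.547, 0.409 and 0.697 FPKM in Dnmt3bCI/CI embryos. The labelled null embryos lay above all 6 others, and Dnmt3b+/+ and Dnmt3bCI/CI overlapped. Wnt9b rose relative to Dnmt3b+/+ (log2 fold change 1.05, SE 0.17, adjusted p = 0.00466) and relative to Dnmt3bCI/CI (log2 fold change 1.18, SE 0.17, adjusted p = 0.0025), while Dnmt3bCI/CI against Dnmt3b+/+ gave a log2 difference -0.13, 95% interval -0.52 to 0.26, adjusted p = 0.957. The rise stood on 229 to 263 reads per embryo against 80 to 137 in the other 6. Of the 5 nephric duct and urogenital ridge markers, 0 were called in either comparison with the labelled null embryos, with 0 and 1 at an unadjusted p under 0.05 relative to Dnmt3b+/+ and to Dnmt3bCI/CI. Their sum was 21.7, 9.76 and 6.66 FPKM in these embryos, 9.23, 22.3 and 10.7 FPKM in Dnmt3b+/+ and 14.4, 19.7 and 17.1 FPKM in Dnmt3bCI/CI. Of 6 surface ectoderm markers, 0 were higher and 1, Krt5, was lower, and the part of these tissues in the Wnt9b values was not tested.

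The neighbor of Wnt9b on chromosome 11, Wnt3, whose annotated gene is 24.3 kb away on the other strand, had 1.49, 1.98 and 1.35 FPKM in Dnmt3b+/+ and 2.09, 1.33 and 1.32 FPKM in the labelled null embryos. These overlapped (log2 difference -0.04, 95% interval -0.48 to 0.40, adjusted p = 0.898), while Wnt9b did not. A second pair of adjacent ligands is Wnt1 and Wnt10b on chromosome 15, 11.7 kb apart. Wnt10b, known from skin and fat, fell (log2 fold change -0.97, SE 0.19, adjusted p = 0.00854), with 0.473, 0.353 and 0.264 FPKM against 0.931, 0.68 and 0.787 FPKM in Dnmt3b+/+ and 0.658, 0.732 and 0.568 FPKM in Dnmt3bCI/CI. Wnt1, the signal of the midbrain-hindbrain boundary, had 0.198, 0.785 and 0.236 FPKM in Dnmt3b+/+ and 1.42, 0.475 and 0.415 FPKM in the labelled null embryos, with overlapping groups and a log2 difference of 0.78 (95% interval -0.37 to 1.94). Boundary markers (4, a list made after the data were seen) summed to 7.84, 22.9 and 9.12 FPKM and 18, 8.89 and 4.11 FPKM in the same embryos, highest in the embryo of each group with the most Wnt1, and their part in the Wnt1 values was not tested. In the other adjacent pairs, Wnt9a with Wnt3a and Wnt6 with Wnt10a, 0 of 4 genes were called relative to Dnmt3b+/+.

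The start regions of the members with the largest changes in either direction relative to Dnmt3b+/+ are shown because the enzyme acts on CpG sites. Each holds 250 bases before to 50 after the RefSeq start in GRCm38.p6, read along the strand of the gene, with CpG in capitals. Wnt9b is at chr11:103749772-103750071, Frzb at chr2:80447347-80447646, Sfrp5 at chr19:42202203-42202502 and Fzd9 at chr5:135250998-135251297, all on the minus strand. The reference strain is C57BL/6J and not FVB.
Wnt9b: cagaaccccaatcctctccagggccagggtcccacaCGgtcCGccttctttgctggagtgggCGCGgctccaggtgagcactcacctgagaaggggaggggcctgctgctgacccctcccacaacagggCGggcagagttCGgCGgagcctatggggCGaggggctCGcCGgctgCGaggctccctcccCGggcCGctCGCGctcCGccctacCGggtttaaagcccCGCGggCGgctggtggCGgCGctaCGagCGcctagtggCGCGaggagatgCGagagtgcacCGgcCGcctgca
Frzb: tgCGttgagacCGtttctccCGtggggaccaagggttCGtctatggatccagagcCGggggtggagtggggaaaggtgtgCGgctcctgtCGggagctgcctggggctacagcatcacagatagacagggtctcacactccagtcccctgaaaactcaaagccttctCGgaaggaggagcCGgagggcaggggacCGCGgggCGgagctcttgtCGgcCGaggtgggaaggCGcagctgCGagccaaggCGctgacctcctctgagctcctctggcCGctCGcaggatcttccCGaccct
Sfrp5: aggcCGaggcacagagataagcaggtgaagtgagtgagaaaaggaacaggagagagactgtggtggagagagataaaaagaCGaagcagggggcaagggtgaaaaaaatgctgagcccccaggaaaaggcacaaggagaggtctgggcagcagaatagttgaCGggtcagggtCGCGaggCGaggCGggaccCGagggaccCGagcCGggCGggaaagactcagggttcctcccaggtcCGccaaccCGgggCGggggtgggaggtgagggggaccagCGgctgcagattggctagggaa
Fzd9: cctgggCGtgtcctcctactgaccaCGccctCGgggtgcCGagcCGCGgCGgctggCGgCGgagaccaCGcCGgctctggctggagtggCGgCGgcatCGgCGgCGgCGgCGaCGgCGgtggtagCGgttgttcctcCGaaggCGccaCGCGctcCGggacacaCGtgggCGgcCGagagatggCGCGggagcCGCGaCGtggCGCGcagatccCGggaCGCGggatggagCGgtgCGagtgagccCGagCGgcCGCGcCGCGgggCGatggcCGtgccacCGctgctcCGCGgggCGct
These windows held 29, 20, 15 and 53 CpG. The median was 28 over the 34 members with a window and 7 over all 32851 windows listed, with quartiles of 3 and 20. Among those 34, the 9 lower members had a median of 22 and the 23 members not called relative to Dnmt3b+/+ a median of 31, and the 2 higher ones had 29 and 20. The core of the motif bound by Tcf and Lef proteins, CTTTGA on either strand, was in 16% of all windows and in 4 of the 34 (Frzb, Fzd1, Wnt11 and Dkk1). Methylation of these sites was not analysed here.

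Wnt8b, a ligand of the medial forebrain, had the largest log2 difference of any member between genotypes, just ahead of Sfrp5, and uneven embryos. It had 0.244, 0.0479 and 0.755 FPKM in the Dnmt3bCI/CI embryos, 1.79, 1.3 and 1.33 FPKM in Dnmt3b+/+ and 1.2, 1.8 and 3.7 FPKM in the labelled null embryos. All Dnmt3bCI/CI embryos lay below all others, and the labelled null embryos overlapped Dnmt3b+/+. Against Dnmt3bCI/CI the difference was called (log2 fold change 2.58, SE 0.60, adjusted p = 0.0152), but Dnmt3bCI/CI against Dnmt3b+/+ was not (log2 difference -2.15, 95% interval -3.51 to -0.78, adjusted p = 0.688). Without labelled null embryo 3 the call was lost (log2 fold change 2.16, adjusted p = 0.0553), and without Dnmt3bCI/CI embryo 2 it was kept at 1.96 (adjusted p = 0.0369), within a range of 0.00849 to 0.0553 over the settings that removed at most 1 embryo. Without the 4 embryos that stood apart, and so against 1 Dnmt3bCI/CI embryo, it was 2.61. Forebrain markers summed to 14.4, 3.58 and 19.7 FPKM in Dnmt3bCI/CI, 32, 29.7 and 30.4 FPKM in Dnmt3b+/+ and 17.2, 24.4 and 34.9 FPKM in the labelled null embryos. The 3 Dnmt3bCI/CI embryos thus lay below all Dnmt3b+/+ embryos for these markers too, with Emx1 and Tbr1 at 0.0212 and 0.0126 FPKM in embryo 2, and the part of this in the Wnt8b result was not tested.

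Wnt11, which branching kidney tips and the outflow tract of the heart use, was lower in the labelled null embryos. Its values were 3.65, 2.08 and 1.57 FPKM there, 3.78, 4.01 and 4.51 FPKM in Dnmt3b+/+ and 4.63, 5.34 and 4.81 FPKM in Dnmt3bCI/CI. Embryo 1 of the labelled null group, at 3.65 FPKM, lay just under the lowest Dnmt3b+/+ embryo at 3.78 FPKM, and the other 2 lay well below. Wnt11 fell relative to Dnmt3bCI/CI (log2 fold change -1.07, SE 0.25, adjusted p = 0.0152) and only narrowly passed relative to Dnmt3b+/+ (log2 fold change -0.81, SE 0.25, adjusted p = 0.0442). The latter call held in 4 of 9 other settings and 1 of 9 runs that left out an embryo, that without labelled null embryo 1, and its adjusted p ranged up to 0.131 over all of them. Against Dnmt3bCI/CI the call was lost without labelled null embryo 2 or without Dnmt3bCI/CI embryo 2 (the latter at adjusted p = 0.0521). Without the 2 embryos low in heart markers the log2 fold changes were as large, -0.86 relative to Dnmt3b+/+ and -1.09 relative to Dnmt3bCI/CI, while with fewer embryos neither passed (adjusted p = 0.102 and 0.0637). Nephric duct and urogenital ridge markers summed to 21.7, 9.76 and 6.66 FPKM in the labelled null embryos, 9.23, 22.3 and 10.7 FPKM in Dnmt3b+/+ and 14.4, 19.7 and 17.1 FPKM in Dnmt3bCI/CI. Their part in the Wnt11 values was not tested.

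Of the other ligands, Wnt7b, a signal of brain and lung epithelium, rose modestly, from 7.38, 9.45 and 7.62 FPKM in Dnmt3b+/+ to 11.6, 9.9 and 11.8 FPKM in the labelled null embryos (log2 fold change 0.44, SE 0.11, adjusted p = 0.0203). It had 6.09, 6.3 and 6.95 FPKM in Dnmt3bCI/CI, below both, and the difference from these was larger (log2 fold change 0.77, SE 0.11, adjusted p = 0.00224). The call relative to Dnmt3b+/+ was lost without Dnmt3b+/+ embryo 1 or 3 or labelled null embryo 3, with only the 2 genotypes fitted, with the replicate block, and without the 2 embryos low in heart markers. Its log2 fold change was 0.38 to 0.55 over the settings that removed at most 1 embryo. Wnt2b, which helps to specify the lung, and Wnt16, a ligand of joints and bone, fell relative to Dnmt3b+/+ by 0.66 and 0.69 on the log2 scale (adjusted p = 0.04 and 0.0319). Both calls were weak and held in 1 and 4 of 9 runs that left out an embryo, with adjusted p of up to 0.131 and 0.0989. Wnt16 rested on 13 to 55 reads per embryo and was also lower against Dnmt3bCI/CI (-0.61, adjusted p = 0.0452), a call held in 2 of 9 such runs and lost with no filter, quantile normalization or the replicate block (adjusted p of up to 0.136). Wnt9a, active in joints, was called lower against Dnmt3bCI/CI (-0.50, adjusted p = 0.0475) and not against Dnmt3b+/+ (-0.43, adjusted p = 0.0844); the call held in 2 of 9 runs that left out an embryo.

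Wnt5a, the ligand with the highest mean over the 9 embryos and a driver of limb and axis outgrowth, was not called in any comparison. It had 11.3, 8.32 and 9.46 FPKM in Dnmt3b+/+, 7.3, 8.92 and 8.82 FPKM in the labelled null embryos and 8.97, 8.53 and 10.2 FPKM in Dnmt3bCI/CI, all overlapping. In the labelled null embryos Wnt7b, at 9.9 FPKM or more, exceeded it. The log2 difference of the labelled null embryos from Dnmt3b+/+ was -0.21, with a 95% interval of -0.50 to 0.08 (adjusted p = 0.252). The remaining ligands were not called in any comparison of all embryos: Wnt2, Wnt3a, Wnt4, Wnt5b, Wnt6, Wnt7a and Wnt10a, beside Wnt1 and Wnt3. Without labelled null embryo 1, limma called Wnt4 lower relative to Dnmt3b+/+ (-0.60, adjusted p = 0.0195) and Dnmt3bCI/CI (-0.95, adjusted p = 0.00303). It also called Wnt10a lower relative to Dnmt3b+/+ (-0.73, adjusted p = 0.0283). Without labelled null embryo 2, Wnt3a was called higher relative to Dnmt3bCI/CI (0.54, adjusted p = 0.0389). Over the 9 embryos, Wnt2 spanned 0.614 to 1.38 FPKM, Wnt3a 0.435 to 0.851 FPKM, Wnt4 2.06 to 5.42 FPKM, Wnt5b 2.82 to 3.8 FPKM, Wnt6 5.18 to 6.22 FPKM, Wnt7a 1.78 to 2.94 FPKM and Wnt10a 0.27 to 0.724 FPKM. For Wnt6, a ligand of surface ectoderm, the interval was narrow, -0.25 to 0.10 on the log2 scale, and for Wnt4, needed in kidney and gonad, it was wide, -0.88 to 0.46. The exons of 9 members (Wnt5a, Wnt7b, Wnt11, Fzd5, Fzd6, Sfrp2, Rspo3, Axin2 and Lef1) overlap a gene on the opposite strand. Whether reads were counted by strand is not given in the sources used here, so that reads of such partners cannot be told apart.

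Among the receptors, the calls relative to Dnmt3b+/+ were falls of Fzd9, Fzd8 and Fzd1, and the most abundant receptor, Fzd2, was not called. Fzd9, a Frizzled of brain and bone, had 3.75, 2.43 and 2.64 FPKM in the labelled null embryos, 4.89, 7.22 and 6.86 FPKM in Dnmt3b+/+ and 5.72, 4.86 and 6.5 FPKM in Dnmt3bCI/CI. The labelled null embryos lay below all 6 others. It fell relative to Dnmt3b+/+ (log2 fold change -1.09, SE 0.20, adjusted p = 0.00705) and relative to Dnmt3bCI/CI (log2 fold change -0.95, SE 0.20, adjusted p = 0.01). Fzd8 was as clear, with 7.29, 6.43 and 6.07 FPKM against 11.1, 13.4 and 12.7 FPKM in Dnmt3b+/+ and 13.1, 10.7 and 13.5 FPKM in Dnmt3bCI/CI. The labelled null embryos overlapped neither (log2 fold change -0.90, SE 0.11, adjusted p = 0.0017 relative to Dnmt3b+/+). Fzd1 fell by 0.21 on the log2 scale (SE 0.06, adjusted p = 0.0415), a call held in 2 of 9 runs that left out an embryo. Its values in Dnmt3bCI/CI, 17.1, 16.9 and 17.1 FPKM, lay below Dnmt3b+/+ as well (17.4, 20.4 and 19.1 FPKM).

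Fzd2, the most abundant Frizzled, had 36.6, 36.8 and 41.3 FPKM in Dnmt3b+/+, 40.5, 36 and 36.8 FPKM in the labelled null embryos and 36.5, 36.5 and 40.4 FPKM in Dnmt3bCI/CI. With these overlapping values, the 95% interval of the labelled null embryos against Dnmt3b+/+ was -0.19 to 0.15 on the log2 scale (adjusted p = 0.874). Fzd7 (-0.16 to 0.18) and the co-receptors Lrp5 (-0.25 to 0.12) and Lrp6 (-0.24 to 0.14) had intervals as narrow. Fzd3, Fzd5, Fzd6 and Fzd10 were not called in any comparison; the intervals for Fzd5, -0.92 to 0.48, and Fzd10, -0.44 to 0.93, relative to Dnmt3b+/+, were the widest of the 12. Over the 9 embryos, Fzd7 spanned 12.9 to 15.5 FPKM, Fzd10 6.98 to 17 FPKM, Lrp5 7.07 to 8.84 FPKM, Lrp6 5.72 to 7.13 FPKM, Fzd3 4.3 to 6.96 FPKM, Fzd6 1.78 to 2.49 FPKM and Fzd5 0.642 to 1.73 FPKM. Fzd4, at 2.8 to 4.25 FPKM, was called against Dnmt3bCI/CI alone (log2 fold change -0.39, SE 0.12, adjusted p = 0.0417), in 2 of 9 runs that left out an embryo.

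Of the 6 roles, the antagonists held the largest share of called members, with 1 higher and 5 lower of 9 in both comparisons of the labelled null embryos. Over all genes 25.8% were called relative to Dnmt3b+/+ and 27.9% relative to Dnmt3bCI/CI, the R-spondin branch had 3 of 5 in the latter, and the difference between roles was not tested. Sfrp5, a decoy for Wnts known from foregut endoderm, fell most: 0.501, 0.557 and 0.195 FPKM in these embryos, 1.65, 2.65 and 2.91 FPKM in Dnmt3b+/+ and 2.95, 2.65 and 2.75 FPKM in Dnmt3bCI/CI. The highest of the labelled null embryos was at 0.557 FPKM and the lowest of the other 6 at 1.65 FPKM. The log2 fold change was -2.32 relative to Dnmt3b+/+ (SE 0.31, adjusted p = 0.00216) and -2.56 relative to Dnmt3bCI/CI (SE 0.31, adjusted p = 0.00123), on 15 to 45 reads against 140 to 252. Dnmt3bCI/CI and Dnmt3b+/+ overlapped (log2 difference 0.24, 95% interval -0.46 to 0.95, adjusted p = 0.957). Dnmt3b+/+ embryo 2, with 0.367 FPKM of liver markers in all, had 2.65 FPKM of Sfrp5, and the part of liver or foregut tissue in the Sfrp5 values was not tested.

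Sfrp2, the member with the highest mean over the 9 embryos and a relative of Sfrp5, was lower in all 3 labelled null embryos. Its values were 24.1, 28.9 and 31.6 FPKM in the labelled null embryos, 49.2, 52.8 and 63.4 FPKM in Dnmt3b+/+ and 52.7, 40.4 and 59.2 FPKM in Dnmt3bCI/CI, without overlap of the first with the others, and below Fzd2 in the first (log2 fold change -0.97, SE 0.16, adjusted p = 0.00488 relative to Dnmt3b+/+). Sfrp4 fell as well (log2 fold change -0.81, SE 0.17, adjusted p = 0.0107), on 9 to 19 reads in these embryos. Dkk3, a divergent Dickkopf protein, fell from 5.47, 6.69 and 5.65 FPKM to 3.04, 3.42 and 3.94 FPKM, with 5.99, 5.37 and 6.93 FPKM in Dnmt3bCI/CI (log2 fold change -0.76, SE 0.13, adjusted p = 0.0049). Wif1, which binds Wnts directly, fell by 0.46 (adjusted p = 0.0263). This call was lost with quantile normalization, with only the 2 genotypes fitted, without Dnmt3b+/+ embryo 1 or 3 or labelled null embryo 2, and without the 2 embryos low in heart markers. Its log2 fold change was -0.56 to -0.32 over the settings that removed at most 1 embryo. Sfrp1, the second most abundant antagonist, had an interval of -0.23 to 0.16 and was not called.

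Frzb, a further Frizzled-like decoy, known from developing cartilage, moved the other way. It had 3.56, 8.28 and 6.83 FPKM in the labelled null embryos, 2.95, 2.63 and 3.09 FPKM in Dnmt3b+/+ and 2.69, 2.94 and 2.73 FPKM in Dnmt3bCI/CI. Embryo 1 of the labelled null group was close to the other genotypes, and embryos 2 and 3 were well above them. Frzb rose relative to Dnmt3b+/+ (log2 fold change 1.00, SE 0.26, adjusted p = 0.0243), just under 2-fold, and relative to Dnmt3bCI/CI (log2 fold change 1.05, SE 0.26, adjusted p = 0.0188). The first call was lost with no filter, with only the 2 genotypes fitted, without Dnmt3b+/+ embryo 2 or 3, without labelled null embryo 2 or 3 and without the 2 embryos low in heart markers (log2 fold change 1.02 without these 2), with adjusted p of up to 0.0816 in these fits. The call relative to Dnmt3bCI/CI was lost without labelled null embryo 2 or 3, without Dnmt3bCI/CI embryo 1 or 3 and without those 2 embryos (log2 fold change 1.03 without these 2). All 5 cartilage markers (Sox9, Col2a1, Acan, Matn1 and Col9a1) were lower in the same embryos, with sums of 125, 93.8 and 79.2 FPKM against 130, 172 and 196 FPKM in Dnmt3b+/+ and 187, 193 and 200 FPKM in Dnmt3bCI/CI. In these embryos the cartilage matrix genes Acan and Matn1 were at 0.608, 0.192 and 0.0892 FPKM and 0.251, 0.129 and 0.0863 FPKM, and the part of cartilage in the Frzb values was not tested.

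The Dickkopf proteins Dkk1 and Dkk2, which act on Lrp5 and Lrp6, were not called relative to Dnmt3b+/+. Dkk2 had 4.84, 4.23 and 5.89 FPKM in the labelled null embryos, 6.22, 5.58 and 6.08 FPKM in Dnmt3b+/+ and 7.02, 6.85 and 7.35 FPKM in Dnmt3bCI/CI, where it was highest, and was called lower against the last (log2 fold change -0.51, SE 0.11, adjusted p = 0.0115). Dkk1 had 0.933 to 2.19 FPKM over the 9 embryos and gave a log2 difference 0.34, 95% interval -0.17 to 0.84, adjusted p = 0.297 relative to Dnmt3b+/+.

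**Figure D4:**
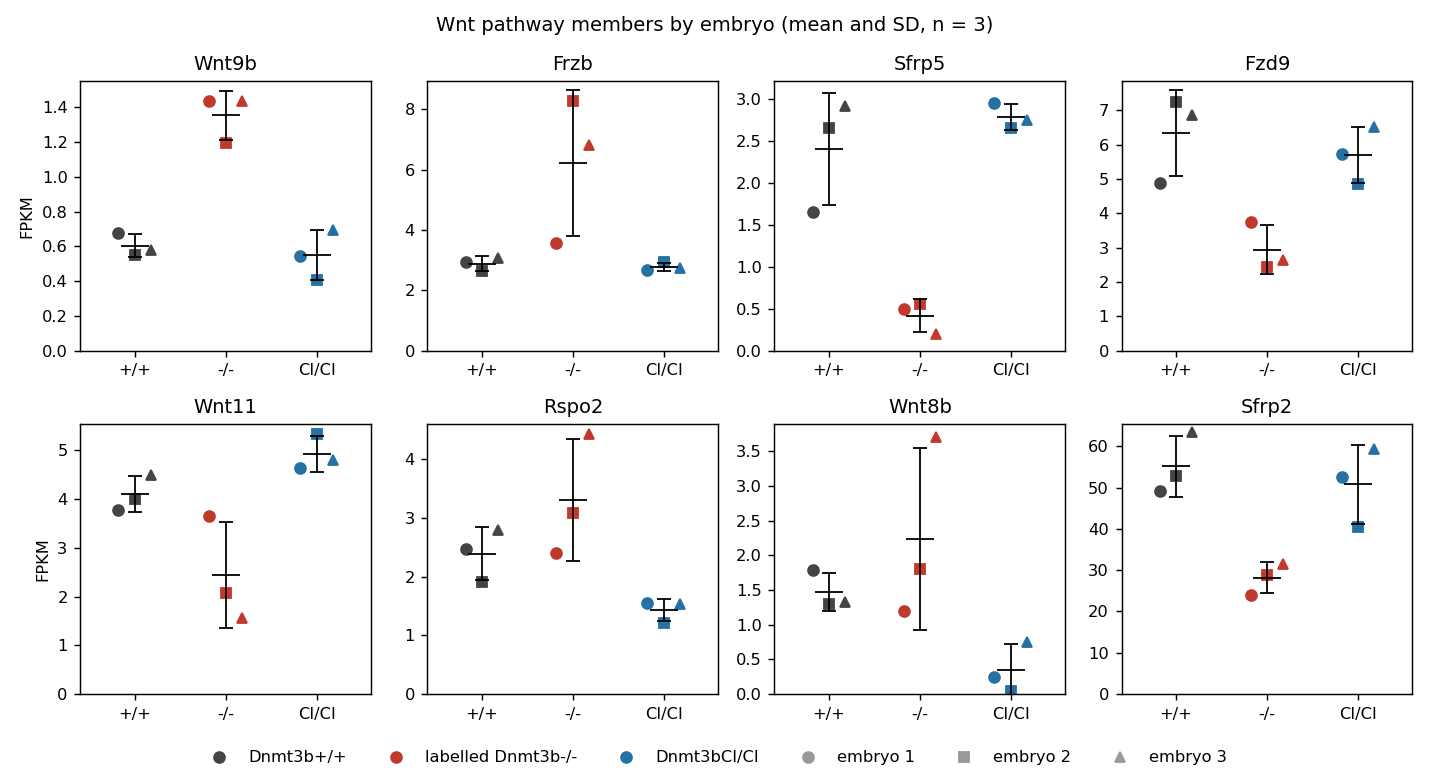
FPKM of 8 members in each embryo, with the mean and SD of the 3 embryos of a genotype. The 3 embryos labelled Dnmt3b-/- lie above the other 6 for Wnt9b and below them for Sfrp5, Fzd9 and Sfrp2, whereas for Frzb 1 of the 3 sits near the other genotypes and for Rspo2 and Wnt8b the Dnmt3bCI/CI embryos are the lowest.

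In the R-spondin branch, Rspo2 and Rspo1 were called between the labelled null and Dnmt3bCI/CI embryos and neither group was called against Dnmt3b+/+. Rspo2, which limb growth requires, had 1.55, 1.22 and 1.53 FPKM in Dnmt3bCI/CI, 2.47, 1.9 and 2.79 FPKM in Dnmt3b+/+ and 2.41, 3.08 and 4.44 FPKM in the labelled null embryos. All Dnmt3bCI/CI embryos lay below all others. It was called between the labelled null and Dnmt3bCI/CI embryos (log2 fold change 1.12, SE 0.22, adjusted p = 0.00826), but neither of these differed from Dnmt3b+/+ past the threshold (0.43, adjusted p = 0.186, and -0.69, adjusted p = 0.798). Rspo1, the most abundant R-spondin and a signal of ovary development, showed smaller steps, and its highest Dnmt3bCI/CI and lowest Dnmt3b+/+ embryo were both at 4.13 FPKM: 3.48, 3.62 and 4.13 FPKM in Dnmt3bCI/CI, 5.4, 4.13 and 5.3 FPKM in Dnmt3b+/+ and 5.43, 5.07 and 6.31 FPKM in the labelled null embryos (log2 fold change 0.57, SE 0.12, adjusted p = 0.0122 relative to Dnmt3bCI/CI). Against Dnmt3b+/+, Dnmt3bCI/CI embryos gave a log2 difference of -0.38 (95% interval -0.67 to -0.10, adjusted p = 0.803). Limb markers (5) summed to 19.6, 22.6 and 17.7 FPKM in Dnmt3bCI/CI, 25, 18.8 and 20.9 FPKM in Dnmt3b+/+ and 21.8, 35.9 and 31.6 FPKM in the labelled null embryos, in which 1 of them, Msx2, was called higher in both comparisons. Their part in the Rspo2 values was not tested.

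Lgr5, a receptor for R-spondins and a target of the pathway, fell in the labelled null embryos, with 0.515, 0.451 and 0.459 FPKM against 0.91, 0.737 and 0.807 FPKM in Dnmt3b+/+ and 0.849, 0.68 and 0.816 FPKM in Dnmt3bCI/CI. The labelled null embryos lay below all others (log2 fold change -0.67, SE 0.12, adjusted p = 0.00718 relative to Dnmt3b+/+), while Dnmt3b+/+ and Dnmt3bCI/CI overlapped. Rspo4 was low, on 12 to 47 reads per embryo, with 0.189, 0.144 and 0.129 FPKM in Dnmt3b+/+ and 0.169, 0.466 and 0.437 FPKM in the labelled null embryos, 2 of them above all others, and was not called (log2 difference 0.78, adjusted p = 0.063). Rspo3, at 2.03 to 3.52 FPKM over the 9 embryos, was not called in any comparison.

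The feedback targets, which report on canonical signaling, were not called between the labelled null embryos and Dnmt3b+/+. Axin2 had 8.07, 7.85 and 8.88 FPKM in the former, 8.16, 9.11 and 8.04 FPKM in the latter and 6.88, 7.87 and 7.6 FPKM in Dnmt3bCI/CI, and the first pair overlapped (log2 difference -0.03, 95% interval -0.21 to 0.15, adjusted p = 0.812). Nkd1, the most abundant of the 4, had 11.9, 10.5 and 9.93 FPKM in the labelled null embryos, 10.1, 12.6 and 9.94 FPKM in Dnmt3b+/+ and 9.54, 9.95 and 10.3 FPKM in Dnmt3bCI/CI, again with overlap (log2 difference -0.01, 95% interval -0.24 to 0.22, adjusted p = 0.942). These are averages over all tissue in a library. Tcf7, at 2.89 to 4.72 FPKM over the 9 embryos, was not called in any comparison (95% interval -0.14 to 0.55 relative to Dnmt3b+/+). Wls, the carrier of Wnts, had 4.83, 5.04 and 5.07 FPKM in Dnmt3b+/+, 4.98, 5.53 and 5.81 FPKM in the labelled null embryos and 5.29, 4.56 and 4.78 FPKM in Dnmt3bCI/CI, and was not called either (log2 difference 0.12, 95% interval -0.06 to 0.30, adjusted p = 0.274 relative to Dnmt3b+/+).

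Lef1, singled out after its values were seen, was the 1 feedback target called in any comparison. It had 2.9, 2.23 and 3.54 FPKM in Dnmt3bCI/CI, 4.13, 3.97 and 3.77 FPKM in Dnmt3b+/+ and 4.51, 5.11 and 5.83 FPKM in the labelled null embryos, with no overlap between any of the groups. The difference between the outer groups was called (log2 fold change 0.83, SE 0.16, adjusted p = 0.00681), and the steps from Dnmt3b+/+ were not (0.37, adjusted p = 0.116, and -0.46, adjusted p = 0.86). Of the members with an unadjusted p under 0.05 in Dnmt3bCI/CI relative to Dnmt3b+/+, Wnt3a, Wnt7b, Wnt8b, Fzd1, Fzd3, Rspo1, Rspo2 and Lef1, all 8 were lower there; over all genes 2.7% were higher and 2.56% lower at that p, and no member passed the adjustment. Roof plate and dorsal neural tube markers (5) summed to 34.7, 37.7 and 42.5 FPKM in Dnmt3bCI/CI, 39.6, 47.7 and 35.4 FPKM in Dnmt3b+/+ and 47.3, 45.7 and 49.3 FPKM in the labelled null embryos, and the forebrain sums were lower in Dnmt3bCI/CI than in Dnmt3b+/+, as given above. The part of these tissues in the 8 values was not tested.

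Beyond the members, 63 other genes of the pathway were listed, of which 60 were tested, and 3 were higher and 14 lower in the labelled null embryos relative to Dnmt3b+/+, with a median log2 fold change of -0.09. These 17 of 60 compare with 9.41% higher and 16.4% lower over all genes, whose median was -0.07. In Dnmt3bCI/CI relative to Dnmt3b+/+, 0 of the 60 were called by limma, with 5 at an unadjusted p under 0.05, and relative to Dnmt3bCI/CI 5 were higher and 12 lower in the labelled null embryos. Sost, an inhibitor of Lrp5 and Lrp6, had 0.692, 1.02 and 0.561 FPKM in these embryos against 0.304, 0.369 and 0.284 FPKM in Dnmt3b+/+ and 0.237, 0.358 and 0.201 FPKM in Dnmt3bCI/CI, a rise of 2-fold or more relative to Dnmt3b+/+ (adjusted p = 0.0149) and to Dnmt3bCI/CI (log2 fold change 1.22, SE 0.23, adjusted p = 0.00635). Kremen2, the partner of Dickkopf proteins at the surface, fell from 6.1, 6.09 and 7.17 FPKM to 3.29, 2.76 and 2.87 FPKM, with 6.28, 6.02 and 7.62 FPKM in Dnmt3bCI/CI (log2 fold change -1.09, SE 0.11, adjusted p = 0.000682). Fgf8, a growth factor of limb, face and midbrain-hindbrain boundary, had 1.06, 3.43 and 2.85 FPKM against 0.83, 0.372 and 0.642 FPKM in Dnmt3b+/+ and 0.462, 0.479 and 0.462 FPKM in Dnmt3bCI/CI (log2 fold change 1.74, SE 0.40, adjusted p = 0.0163), with embryo 1 of the labelled null group the lowest of its 3. Sp8, a limb and forebrain factor, was 2-fold higher against Dnmt3bCI/CI alone (SE 0.27 on the log2 scale, adjusted p = 0.0246), with 0.987, 0.613 and 1.42 FPKM there and 1.87, 1.78 and 1.45 FPKM in Dnmt3b+/+.

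By group, relative to Dnmt3b+/+, 6 of 10 genes of planar cell polarity, the branch that orients cells in a sheet, were lower (Celsr1, Prickle1, Prickle2, Prickle3, Daam1 and Daam2), by 0.29 to 0.62 on the log2 scale, and 0 were higher, beside 16.4% lower over all genes; the groups were not tested against each other. Of 21 cytoplasmic and nuclear transducers, 4 were lower (Apc, Bcl9l, Pygo1 and Tle2) and 0 higher. Among 10 co-receptors and genes of receptor turnover, Lgr6 was lower. Of 7 other ligands and antagonists tested, Sost was higher and Apcdd1, Kremen1 and Kremen2 were lower, while neither of the 2 genes of production and release was called. Of 10 other feedback and target genes tested, Fgf8 and Ccnd1 were higher, the latter a cell cycle gene at 46.5, 48 and 52.5 FPKM against 29.3, 26.9 and 26.5 FPKM (log2 fold change 0.83, SE 0.06, adjusted p = 0.000181). Wnt8a, Cdx1 and Cdx4 were too low to be tested.

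Calls among the members were read against the libraries that stood apart. Of the 16 members called relative to Dnmt3b+/+, 9 were called in every setting in which they were tested, the removal of any 1 embryo included, other than the removal of 4 embryos given next: Wnt9b, Wnt10b, Fzd8, Fzd9, Sfrp2, Sfrp4, Sfrp5, Dkk3 and Lgr5. How many of all genes were called in every setting was not counted, in either comparison with the labelled null embryos. Without the 2 embryos low in heart markers, 10 members were called, Fzd1 and these 9, beside 16.3% of all genes. Without all 4 embryos (chosen after the data were seen) low in heart, liver or forebrain markers, 1 Dnmt3b+/+ and 1 Dnmt3bCI/CI embryo remained and 0 members were called by limma, where 25 genes in all were higher and 1 lower. Against the 1 Dnmt3b+/+ embryo left, with no test of their own, the log2 fold changes were 1.09 for Wnt9b, 0.90 for Frzb, -2.62 for Sfrp5, -1.22 for Fzd9 and -1.18 for Sfrp2. Against Dnmt3bCI/CI, 11 of the 20 called members held with any 1 embryo removed and in the other settings (Wnt7b, Wnt9b, Fzd8, Fzd9, Sfrp2, Sfrp5, Dkk2, Dkk3, Rspo1, Rspo2 and Lef1). Without the 2 embryos low in heart markers, 12 were called, beside 14.5% of all genes. They were these with Wnt8b and Lgr5 and without Dkk2. Without all 4, the fit had 2 residual degrees of freedom and assumed that the lone embryos vary like the labelled null embryos, so only fold changes are given. The log2 fold changes there were 2.61 for Wnt8b, 1.16 for Wnt9b, 1.10 for Frzb and -0.91 for Sfrp2, beside 2.58, 1.18, 1.05 and -0.84 with all embryos.

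Embryonic globins, which yolk sac red cells make before the liver takes over, were another uneven set. Hbb-bh1 was at 113, 501 and 265 FPKM in the labelled null embryos, 26.9, 46.1 and 23.3 FPKM in Dnmt3b+/+ and 25.1, 26.8 and 20.2 FPKM in Dnmt3bCI/CI (log2 fold change 3.01, SE 0.48, adjusted p = 0.00418 relative to Dnmt3b+/+), and Hba-x rose as well, 2 of 5 red cell markers. Embryo 1 of the labelled null group had the least Hbb-bh1 of its 3, as it had the least Frzb and Fgf8 and the most Wnt11. These genes were picked with the values in view, and other called members ran the opposite way. Embryo 1 was the lowest of its 3, and so farthest from Dnmt3b+/+, for Sfrp2 (24.1, 28.9 and 31.6 FPKM in embryos 1 to 3). The same held for Dkk3 (3.04, 3.42 and 3.94 FPKM) and Wif1 (1.79, 1.94 and 2.32 FPKM). How the members divide in this respect was not counted. Of the other lists relative to Dnmt3b+/+, 1 of 5 roof plate markers (Msx1) and 1 of 4 floor plate markers (Shh) were higher and 1 of 5 liver markers (Ttr) was lower. Of 5 decidua markers 2 were tested and Bmp2 was lower, and 0 were called by limma of 5 heart, 5 neural and 4 tail bud markers (0, 0 and 1 at an unadjusted p under 0.05). Of 5 trophoblast markers 1 was tested and not called (unadjusted p under 0.05), the others being at most 0.0282 FPKM in any embryo. What part red cells or any of these tissues had in the Wnt members was not tested.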

How the data were processed

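Total RNA of 9 E11.5 embryos, labelled as whole, was sequenced as paired-end libraries. The authors aligned reads to mm10 with STAR, filtered on mapping quality and deposited FPKM per gene from the SeqMonk RNA-seq pipeline; annotation release and strandedness are not given in the sources used here. FPKM are not counts, so the count test of the study was not run. From them log2(FPKM + 0.1) was computed for the 19398 genes at 0.1 FPKM or more in at least 3 of 9 embryos. All 9 embryos were fitted with limma 3.58.1 (R 4.3.3), with a variance trend and moderated statistics, and p-values were adjusted over all genes by Benjamini-Hochberg. The pipeline was tested on simulated data. Reads per library, worked back from the values, were 38451729 to 49808777, and genes without reads carried a value worth 0.9 reads. Sequences came from RefSeq.

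The rule for members uses symbols and roles alone, but the members and gene lists were chosen with earlier results of these data known. Members given with full values were Wnt9b, Frzb, Sfrp5, Fzd9, Wnt11, Rspo2 and Wnt8b and the member of each role with the highest mean; other members called, and pathway genes called at 2-fold or more, were named with values. Alternatives changed the pseudocount, filter, scaling, samples fitted, variance model and replicate block, and left out each embryo. Other data types of the series were not used here.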

Additional observations from a re-analysis of the deposited data

How the results depend on the processing

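Over the named members and 3 comparisons, 713 of the values from other settings kept direction and call, 45 lost the call, 1 gained it and 21 changed sign. The 16 members called in labelled null embryos relative to Dnmt3b+/+ (25.8% of all genes were called) became 9 (14.8% of all genes) when only the 2 genotypes were fitted, 9 to 21 (12.4% to 35.6%) with an embryo left out (9 without Dnmt3b+/+ embryo 3, 10 without labelled null embryo 2), 10 (16.3%) without the 2 embryos low in heart markers and 0 (0.14%) without the 4 embryos low in heart, liver or forebrain markers, where 2 residual degrees of freedom were left. These last settings were added after seeing the data. At 2-fold, 3 members were called, beside 1.07% of all genes higher and 3.38% lower. They became 7 with a pseudocount of 0.01 FPKM and 1 with 1 FPKM. With an embryo left out they were 2 to 7 (5 without Dnmt3b+/+ embryo 1, 7 without labelled null embryo 1). Shares of all genes at 2-fold were not counted outside the main fit. In Dnmt3bCI/CI relative to Dnmt3b+/+, 0 were called by limma in every setting. Relative to Dnmt3bCI/CI, 20 called members (27.9% of all genes) became 13 to 24 (15.9% to 37.4%) with an embryo left out (13 without labelled null embryo 3), 12 (14.5%) without the 2 and 0 (0 genes) without the 4 embryos. The 6 at 2-fold, beside 1.1% of all genes higher and 4.32% lower, became 2 with a pseudocount of 1 FPKM. With an embryo left out they were 2 to 8 (2 without labelled null embryo 3). The cause was not tested.

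Sign changes touched differences near 0 that were not called. For labelled null relative to Dnmt3b+/+ embryos, with an embryo left out, log2 differences ranged from -0.069 to 0.039 for Fzd2 and from -0.085 to 0.095 for Nkd1, which was at 0.00095 with median-of-ratios scaling and 0.11 without the 4 embryos. For Dnmt3bCI/CI relative to Dnmt3b+/+ the ranges were -0.17 to 0.055 for Wnt5a, -0.29 to 0.033 for Wnt9b, -0.066 to 0.041 for Fzd2, -0.25 to 0.027 for Sfrp2 and -0.091 to 0.014 for Wls, which was at 0.060 without the 4. For Fzd2 in labelled null relative to Dnmt3bCI/CI embryos the range was -0.053 to 0.048, with 0.025 under median-of-ratios scaling, 0.048 without the 2 embryos and 0.047 without the 4.

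Embryos of different genotypes share replicate numbers. With the replicate block, 11 members were called relative to Dnmt3b+/+ (2 higher, 9 lower; 15.6% of all genes), 0 in Dnmt3bCI/CI and 17 relative to Dnmt3bCI/CI (7 higher, 10 lower; 18.5% of all genes). Deviations from the genotype means had a mean r of -0.0865 over the 9 same-numbered pairs (from -0.34 to 0.215, with 1 over 0.1). Over 18 other pairs the mean was 0.0478. The pairs share embryos and the deviations of a genotype sum to 0. Whether a number stands for a shared litter or batch therefore cannot be told from these values. Sfrp4 and Wnt16 rested on 9 to 55 reads per embryo, and the effect of depth on their calls was not tested.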
